A study of Mus musculus with 32 samples.

Results

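Gene expression was compared between prefrontal cortex of female Withdrawal Seizure-Prone (WSP) mice taken at the end of chronic ethanol vapor exposure and that of air-exposed females of the same lines. These samples are the 8 arrays of the series whose codes mark female WSP animals, 4 EtOH and 4 Air, of 32 arrays in all. The members were chosen by that code and not by any measured value, though with earlier results of these data known. WSP mice were bred for severe convulsions on ethanol withdrawal, in 2 independent selection lines (WSP-1 and WSP-2) derived from a genetically heterogeneous stock, and adults of selected generation 26 were used.

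The EtOH females were kept in ethanol vapor for 72 h after they were injected with ethanol, at 1.5 g/kg in WSP-1 and at a somewhat higher dose in WSP-2. The Air females were kept in air chambers and received no ethanol. Both groups received pyrazole, an inhibitor of alcohol dehydrogenase, at 68.1 mg/kg. Tissue was taken at 0 h of withdrawal. Each array carried cDNA labelled with 33P from the RNA of a pool of 2 animals, and each line gave pools 1 and 2 per treatment. Arrays are named by line and pool, so that EtOH 2-1 is pool 1 of WSP-2. A pool averages its animals. The spread between arrays holds both the spread between pools and that of the array measurement, and these cannot be told apart.

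The prefrontal cortex takes part in executive control and in the control of drinking. Ethanol acts on it through GABA and glutamate receptors, and it is oxidised in brain by catalase and by the cytochrome P450 enzyme Cyp2e1, which ethanol is known to induce in liver. Withdrawal convulsions develop in the hours after ethanol is removed.

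Each array held 5355 spots, of which 5163 remained without genomic DNA controls, and 3872 probes passed the filter on dim probes. Of these, 814 had a title naming 1 mouse gene. The background reading of an array, a single value, was 88.4 to 283 on the 4 pool 1 arrays and 10.3 to 66.8 on the 4 pool 2 arrays. A probe is called above background where its signal exceeds that reading. The share of probes above background was 15.8% to 49.3% on pool 1 arrays and 66.8% to 82.5% on pool 2 arrays, with the lowest on EtOH 2-1 and the highest on Air 2-2. A probe not above background is not thereby unexpressed. The file of EtOH 1-2 carries a header name that ends in pool 1, and the deposited sample record was followed. The background reading of EtOH 1-2 was 36.3, and it correlated best with EtOH 2-2, also of pool 2 (Pearson's r = 0.949 over the tested probes).

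Signal also followed the place of a spot on the array. The Spearman correlation of log2 signal between spots side by side was 0.551 to 0.664 on pool 1 arrays and 0.325 to 0.385 on pool 2 arrays. The 16 spotting grids differed between arrays in a way that involved whole grids. In grid c of field 1, the median probe stood 0.72 log2 units above its own mean over the 8 arrays on EtOH 2-1, and it stood 0.83 log2 units below that mean on Air 1-1. In grid a of field 1 the same measure was -1.26 on EtOH 2-1 and 0.61 on Air 1-1. The neighbours' difference, or the gene's difference with the neighbours subtracted, is therefore given beside the 12 genes higher and the genes lower in EtOH. The same is done beside each list gene whose values on all 8 arrays are printed. The neighbours' difference is the EtOH minus Air difference of the median log2 signal of the spots up to 3 columns and 3 rows away in the same grid. It was taken before quantile normalisation, relative to the median of such values over all probes of the array. For the difference with the neighbours subtracted, they were subtracted on each array before quantile normalisation, and the fit was repeated. The neighbours' difference and the difference left therefore need not add up to the gene's difference.

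**Figure D1:**
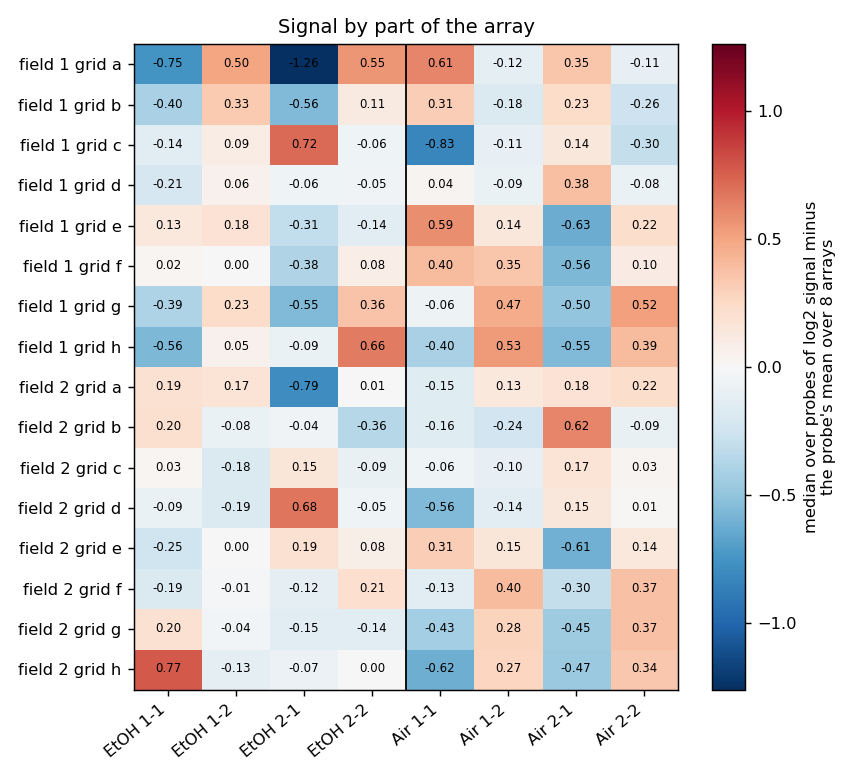
Median, over the tested probes of each of the 16 grids (rows), of log2 signal minus the probe's mean over the 8 arrays, for the 4 EtOH arrays (left of the line) and the 4 Air arrays (right of it), named by selection line and pool. Values run from -1.26 to 0.77, both on EtOH pool 1 arrays (grid a of field 1 and grid h of field 2).

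No probe separated the 4 EtOH pools from the 4 Air pools past the threshold. In limma with pool number as a block, 0 of 3872 probes (0%) had an adjusted p under 0.05 (Benjamini-Hochberg over all tested probes), and the smallest adjusted p was 0.975. At an unadjusted p under 0.05 there were 141 probes, 3.64% of those tested. The 4 EtOH values lay wholly above the 4 Air values for 53 probes (1.37%) and wholly below them for 36 probes (0.93%). The median EtOH minus Air difference over all tested probes was -0.03 on the log2 scale, with 1805 positive and 2067 negative.

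The arrays set different limits for bright and dim probes. For the 514 probes above background on all 8 arrays, the median standard error of the difference was 0.25 log2 units, against 0.36 over all tested probes. The 95% confidence interval of the difference lay wholly within a 2-fold change, in either direction, for 403 of these 514 probes. For all tested probes that number was 1431 of 3872. These intervals are per probe and are not adjusted for the number of probes.

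The genes described first are the 12 with the smallest p among those higher, and the 12 among those lower, in EtOH, taken from the 181 gene-titled probes above background on all 4 arrays of at least 1 treatment. None passed the threshold (adjusted p = 0.975 for each, limma). Apart from Npm1, the higher genes met the background condition only through the EtOH arrays, and the lower genes only through the Air arrays. Their counts of arrays above background therefore give no separate evidence of a difference. Values are log2 normalised signal, in the order of arrays 1-1, 1-2, 2-1 and 2-2, and levels of different probes are not compared.

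Among the genes higher in EtOH, 11 of 12 lay in grid c of field 1. Guca2a encodes guanylin, a peptide best known from the intestine that activates a membrane guanylate cyclase. It had log2 signals of 5.08, 5.59, 6.32 and 5.43 in EtOH females, against 3.65, 4.06, 4.39 and 4.59 in Air females. The groups did not overlap, and the EtOH minus Air difference was 1.44 ± 0.35 (SE, n = 4 each; unadjusted p = 0.00362, adjusted p = 0.975, limma). Its neighbours on the array differed by 0.78 log2 units, and the difference was 0.44 with the neighbours subtracted.

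Wfdc18, named on the array as extracellular proteinase inhibitor, was the other gene of the 12 whose groups did not overlap. Its log2 signals were 5.05, 5.12, 6.84 and 4.73 in EtOH females, against 3.81, 4.09, 4.52 and 3.84 in Air females, a difference of 1.37 ± 0.43 (SE). The neighbours differed by 0.90, and 0.20 was left with them subtracted. Nfs1, the cysteine desulfurase that supplies sulfur for iron-sulfur clusters, had log2 signals of 4.66, 5.25, 6.62 and 4.41 in EtOH females, against 3.34, 4.16, 4.82 and 2.58 in Air females. Each of its 4 EtOH pools was above the Air pool of the same line and number, yet the groups overlapped. The difference was 1.51 ± 0.58 (SE), the neighbours differed by 0.72, and 0.39 was left with them subtracted.

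For a further group of these genes the difference rested largely on EtOH 2-1. Bckdha, a subunit of the complex that degrades branched-chain amino acids, had log2 signals of 4.83, 5.06, 7.79 and 4.90 in EtOH females, against 4.06, 5.28, 4.51 and 2.88 in Air females. Kif4, a kinesin of dividing cells, had 4.78, 4.63, 8.21 and 4.65 in EtOH females, against 4.23, 4.65, 4.56 and 3.75 in Air females. EtOH 2-1 is the high value in both, and the other 3 EtOH arrays overlap the Air arrays. Without EtOH 2-1 the log2 differences were 0.76 for Bckdha and 0.42 for Kif4, compared with 1.46 and 1.27 over all arrays. The neighbours differed by 0.83 for Bckdha and by 0.82 for Kif4, and 0.26 and 0.18 were left with them subtracted. The same held for Soat1, which esterifies cholesterol (0.34 without that array and 0.93 with it), for Ramp2, a partner of the adrenomedullin receptor (0.62 and 1.17), for Art5, an ADP-ribosyltransferase (0.58 and 1.19), and for cyclin B1, related sequence 1 (0.67 and 1.27). Art5 was above background on no Air array and on all 4 EtOH arrays, and the bound over all arrays is at least a 1.70-fold higher signal in EtOH. That bound includes EtOH 2-1, without which the measured difference of 0.58 lies below it. The neighbours of Art5 differed by 0.94, and its difference was -0.05 with them subtracted. The differences left after subtraction were 0.11 for Soat1, 0.01 for Ramp2 and 0.35 for cyclin B1, related sequence 1.

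Npm1, a nucleolar chaperone, was the only one of the 12 above background on all 8 arrays. Its log2 signals were 8.05, 7.89, 7.73 and 8.17 in EtOH females, against 6.87, 7.32, 7.81 and 7.81 in Air females, a difference of 0.51 ± 0.29 (SE). Its neighbours differed by 0.86, and the difference was -0.58 with them subtracted. The carbonyl reductase probe differed by 0.63, and by -0.25 with the neighbours subtracted. The subtraction takes the same log2 amount from bright and dim spots.

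Tlr4, the receptor for bacterial lipopolysaccharide and an innate immune receptor of microglia, was the 1 gene of the 12 outside that grid. It had log2 signals of 4.96, 4.76, 6.03 and 5.15 in EtOH females, against 3.33, 4.44, 4.91 and 5.02 in Air females. The EtOH pool was above the Air pool in all 4 pairs of line and pool, with overlap between the groups, and the difference was 0.80 ± 0.46 (SE; adjusted p = 0.975, limma). Its neighbours differed by -0.01, and with them subtracted the difference was 0.63 (unadjusted p = 0.0315). The pool 1 arrays gave 1.38 and the pool 2 arrays 0.22.

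The 12 genes lower in EtOH lay in 5 grids, 5 of them in grid d of field 1. MSSP, a protein that binds single-stranded DNA near the Myc gene, was lower in EtOH without overlap between the groups. Its log2 signals were 4.81, 4.71, 4.43 and 4.49 in EtOH females, against 5.76, 5.78, 5.87 and 4.86 in Air females. The nearest values of the groups were those of EtOH 1-1 and Air 2-2. The difference was -0.96 ± 0.29 (SE; unadjusted p = 0.0103, adjusted p = 0.975, limma), the neighbours differed by -0.29, and -0.51 was left with them subtracted.

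Zfp62, a zinc finger protein, had log2 signals of 4.16, 5.94, 3.07 and 5.49 in EtOH females, against 5.79, 6.48, 5.28 and 6.22 in Air females. The groups overlapped, and every EtOH pool was below the Air pool of the same line and number. The difference was -1.28 ± 0.38 (SE), the neighbours differed by -0.63, and the difference was -1.02 with the neighbours subtracted (unadjusted p = 0.00781, adjusted p = 0.818 in that fit). This was the smallest p of the 181 genes after subtraction.

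Hps1, a subunit of a complex needed for melanosomes and platelet granules that is mutated in pale ear mice, had a difference of -1.003 ± 0.47 (SE). Its neighbours differed by -0.38, and -0.71 was left with them subtracted (unadjusted p = 0.00933). Its log2 signals were 5.003, 4.28, 3.20 and 4.08 in EtOH females, against 6.20, 4.60, 4.93 and 4.85 in Air females. Every EtOH pool was below its Air partner, and the groups overlapped through EtOH 1-1.

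Of the other 8 genes lower in EtOH, Ppm1b, a serine/threonine phosphatase, and Src, a tyrosine kinase of synapses and growth signalling, were below their Air partners in all 4 pairs (-0.84 ± 0.31 and -0.92 ± 0.37, SE). Clec1b, a platelet receptor, and phospholipase C epsilon 2 were also below in all 4 pairs (-0.59 and -0.54). After subtraction of the neighbours the differences were -0.66 for Ppm1b, -0.36 for Src, -0.59 for Clec1b and -0.66 for phospholipase C epsilon 2. Tinag, a basement membrane protein known from kidney, differed by -2.47 log2 units on pool 1 arrays and by -0.24 on pool 2 arrays. The corresponding values were -1.76 and 0.01 for Cpxm2, a carboxypeptidase-like protein, and -2.79 and 0.33 for v-src suppressed transcript 1. For these 3 genes the pool 1 arrays carried most of the difference. Once the neighbours were subtracted it was -0.63 for Tinag, -0.64 for Cpxm2 and 0.21 for v-src suppressed transcript 1, whose direction turned. Gpr26, an orphan receptor of brain, was above background on no EtOH array and on all 4 Air arrays, but its signal was 5.37 both on EtOH 2-1 and on Air 1-1, and no bound on the fold could be set. Its difference was -0.63, and -0.48 with the neighbours subtracted.

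**Figure D2:**
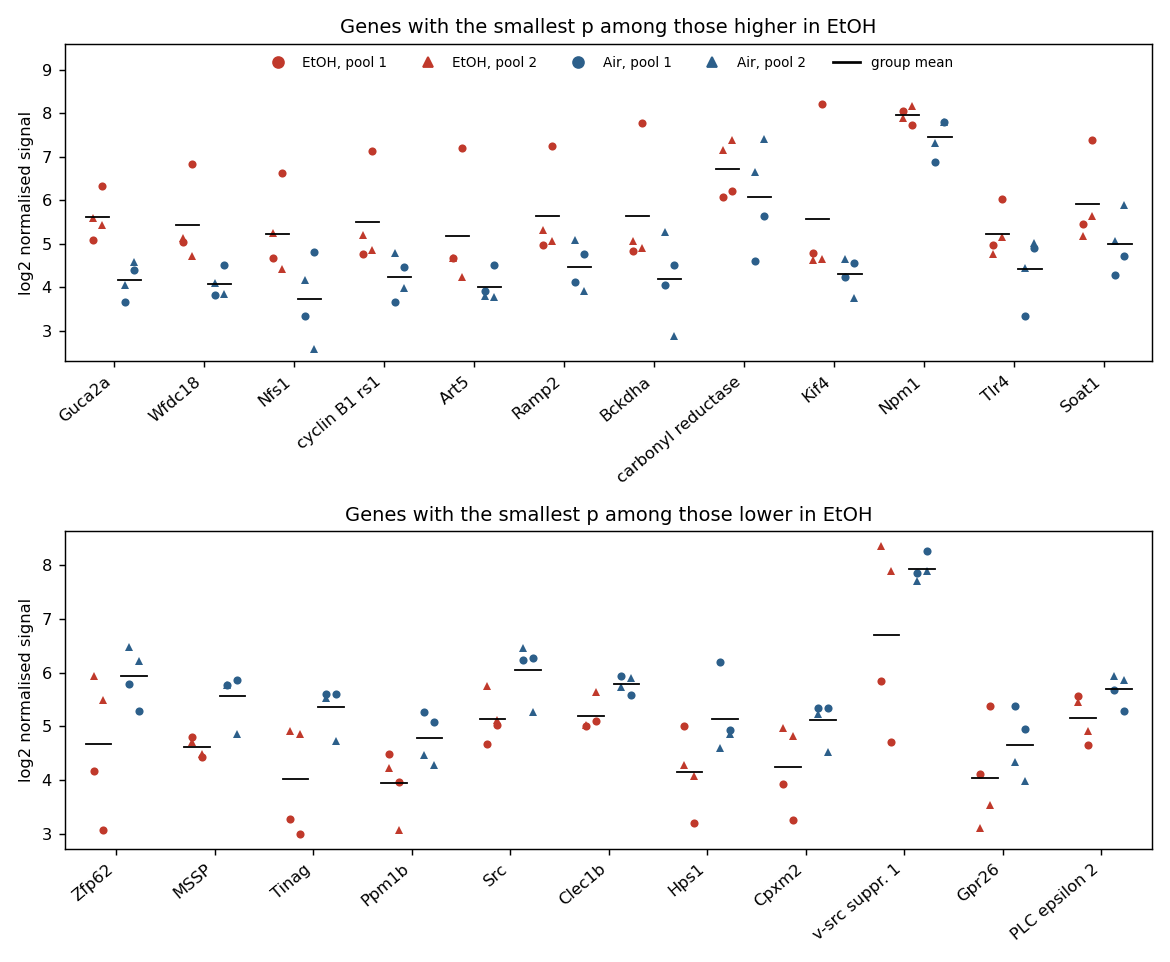
Log2 normalised signal of 12 genes higher (top) and 11 lower (bottom) in EtOH, for 4 EtOH pools (red, left of each pair) and 4 Air pools (blue, right), with pool 1 arrays as circles, pool 2 arrays as triangles and a bar at the group mean. The groups do not overlap for Guca2a, Wfdc18 and MSSP, and EtOH 2-1 is the single high point of Bckdha and Kif4 at 7.79 and 8.21.

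Over all 3872 tested probes, a probe's EtOH minus Air difference and that of its neighbours were correlated with Pearson's r = 0.693 (Spearman's rho = 0.654), a description across probes that share the same 8 arrays and are not independent. Of the 50 probes with the smallest p, 21 lay in grid c of field 1, which held 265 of the tested probes, and 8 lay in grid d of field 1. In that grid c, 15.8% of probes had an unadjusted p under 0.05 and the median difference was 0.43. With the neighbours subtracted on each array, the correlation between arrays had a median of 0.914 and a lowest value of 0.886, compared with 0.803 and 0.689 before. After that subtraction 0 probes had an adjusted p under 0.05 and 226 (5.84%) an unadjusted p under 0.05.

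**Figure D3:**
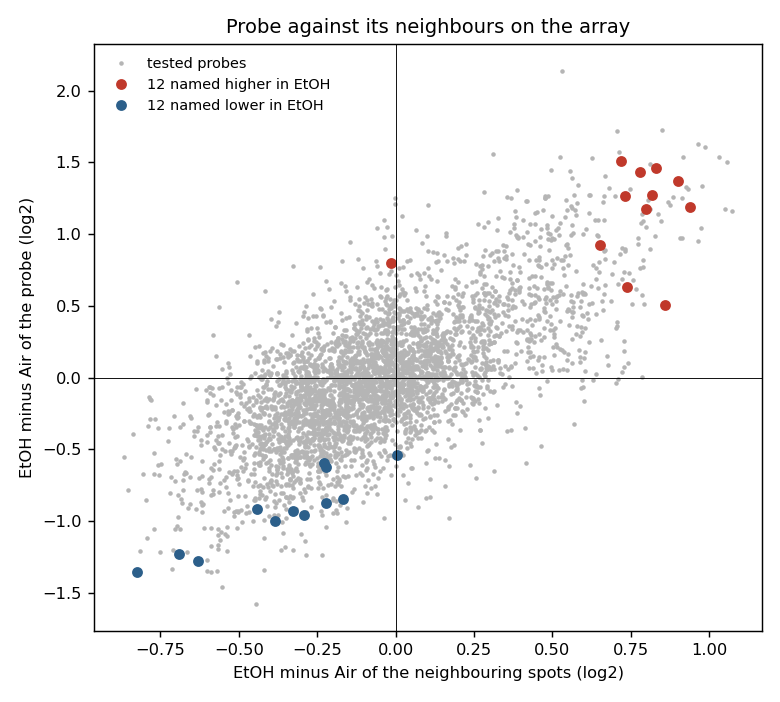
EtOH minus Air difference (log2) of each of 3872 tested probes (vertical axis) against that of the median of its neighbouring spots (horizontal axis), with the 12 named higher genes in red and the 12 named lower genes in blue. Of the 12 higher genes, 11 have neighbours that are also higher in EtOH, and of the 12 lower genes, 11 have neighbours that are also lower. Those 11 higher genes all lie in grid c of field 1. Over all 3872 tested probes, 72.3% had the same sign as their neighbours.

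Genes were next described by list, covering ethanol metabolism, synaptic signalling, stress and immune responses, basic cell functions and cell types. The 26 lists had 114 members on the array, of which 98 were tested, and 0 passed the threshold. Of the 98, 42 were higher and 56 lower in EtOH, with a median log2 difference of -0.09, compared with -0.03 over all tested probes. An unadjusted p under 0.05 was found for 6 members, 6.12% of the 98, compared with 3.64% of all tested probes. The lists were chosen with earlier results of these data known, so these shares are no independent comparison.

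Among the enzymes of alcohol, aldehyde and P450 metabolism 3 genes were tested, of which 1 was higher and 2 were lower in EtOH. Their median log2 difference was -0.25, and 0.10 with the neighbours subtracted. Cyp2e1 had log2 signals of 5.97, 5.97, 5.34 and 6.37 in EtOH females, against 5.004, 5.34, 4.80 and 4.70 in Air females. All 4 EtOH pools were above their Air partners, and the groups touched at EtOH 2-1 and Air 1-2, which were equal to 2 decimals. The difference was 0.95 ± 0.28 (SE, n = 4 each; unadjusted p = 0.00955, adjusted p = 0.975, limma). It was 0.75 on pool 1 and 1.15 on pool 2 arrays, and 0.79 with the neighbours subtracted, which differed by 0.44. Cyp2e1 was above background on 3 of 4 arrays of each treatment.

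Of 7 tested genes of interferon response and antigen presentation, 5 were higher and 2 lower in EtOH, with a median of 0.17. Mx2, an interferon-induced GTPase that restricts viruses, had log2 signals of 5.08, 6.07, 4.83 and 5.48 in EtOH females, against 3.90, 4.12, 4.51 and 2.78 in Air females. The groups did not overlap, with a difference of 1.53 ± 0.45 (SE; unadjusted p = 0.00885, adjusted p = 0.975, limma). Mx2 lies in grid c of field 1, where its neighbours differed by 1.03, and 0.23 was left with them subtracted. Cd74, the invariant chain of MHC class II, was above background on all 8 arrays and differed by 0.17 (95% interval -0.37 to 0.72). In the list of innate immune signalling Tlr4 (above) had the smallest p of 4 tested genes, of which 2 were higher and 2 lower.

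The synaptic lists were mixed. Of 5 tested genes of glutamate signalling 3 were higher and 2 lower, with Dlg3, a scaffold of NMDA receptors, the largest. Dlg3 had log2 signals of 4.80, 5.68, 4.71 and 4.88 in EtOH females, against 2.59, 3.83, 4.48 and 3.84 in Air females, without overlap. Its difference was 1.33 ± 0.42 (SE; unadjusted p = 0.0129), its neighbours in grid c of field 1 differed by 0.98, and 0.22 was left with them subtracted. All 3 tested genes of GABA signalling were lower (median -0.52), with Gabbr1, a subunit of the GABA-B receptor, at -0.52 ± 0.36 (SE; unadjusted p = 0.18). With the neighbours subtracted the median of these 3 was 0.01. Of 6 tested synaptic vesicle genes 3 were higher and 3 lower. Syn1, a vesicle phosphoprotein, was above background on no EtOH array and on 2 of 4 Air arrays, and its measured difference was -0.62 ± 0.29 (SE), with no bound on the fold, as for Tcp1 and Rpl19 below.

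No gene of the stress response and early transcription lists passed the threshold. Of 7 tested immediate early genes 3 were higher and 4 lower. Egr1, an activity-induced transcription factor, was above background on no EtOH array and on 3 of 4 Air arrays, with a measured difference of -0.84 ± 0.42 (SE; unadjusted p = 0.0803). The bound on its fold was a 1.01-fold lower signal in EtOH, and the 95% interval of the measured log2 difference was -1.80 to 0.13. Its neighbours differed by -0.34, and -0.51 was left with them subtracted. Its highest Air signal, 5.86 on Air 1-1, stood apart from the other 3 (4.32 to 4.41). Ier2, above background on all 8 arrays, differed by 0.24 (95% interval -0.47 to 0.95). All 4 tested genes of the glucocorticoid and steroid list were lower (median -0.36), with Tsc22d3, a glucocorticoid-induced gene, at -0.59 ± 0.39 (SE). The median of this list was -0.04 with the neighbours subtracted. Of 6 tested chaperones 2 were higher and 4 lower. Among them Dnajb1 and Hspe1 were above background on all 8 arrays, at -0.22 (95% interval -0.86 to 0.43) and 0.10 (95% interval -0.69 to 0.90), while the cytosolic chaperonin subunit Tcp1, above background on no EtOH array, differed by -0.60. Ddit3, a transcription factor of the integrated stress response, had the smallest p of 3 tested genes of that list and differed by -0.35 (95% interval -1.12 to 0.42).

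Chromatin regulators included 2 of the 6 members with an unadjusted p under 0.05. Sin3a, the scaffold of a histone deacetylase complex, had log2 signals of 4.93, 5.98, 4.76 and 5.72 in EtOH females, against 2.64, 4.80, 4.86 and 4.41 in Air females. Its difference was 1.17 ± 0.45 (SE; unadjusted p = 0.0321), its neighbours differed by 0.55, and the difference was 0.74 with the neighbours subtracted. The EtOH pool was above the Air pool in 3 of 4 pairs. Ezh2, the histone H3 methyltransferase of the Polycomb complex PRC2, had 4.55, 5.11, 4.81 and 5.63 in EtOH females, against 4.40, 3.70, 4.67 and 3.30 in Air females. It was above background on 2 of 4 EtOH arrays and on no Air array, and the bound on its fold was a 1.51-fold higher signal in EtOH. That bound averages in EtOH arrays that were themselves below background, so it is no lower limit of the difference. The measured log2 difference of Ezh2 had a 95% interval of 0.10 to 1.91 (unadjusted p = 0.0335, limma), which reaches below the bound. It was 0.14 on pool 1 and 1.87 on pool 2 arrays, and 0.75 over all 8 with the neighbours subtracted. Of the 9 tested chromatin genes 6 were higher and 3 lower, with a median of 0.14.

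Lists of basic cell functions held 1 further member with an unadjusted p under 0.05, Rpl19. Of 8 tested ribosomal protein genes 3 were higher and 5 lower, with a median of -0.02. Rpl19, a protein of the large ribosomal subunit, was above background on no EtOH array and on 3 of 4 Air arrays, with a measured difference of -1.05 ± 0.42 (SE; unadjusted p = 0.0364). Every EtOH pool was below its Air partner, 4.30, 3.71, 3.96 and 2.73 in EtOH females, against 5.47, 4.81, 3.97 and 4.64 in Air females. The measured difference was -0.69 with the neighbours subtracted. Of 5 tested respiratory chain genes 2 were higher and 3 lower, with Ndufv1, a complex I subunit, at 0.42. Of 4 tested proteasome genes 1 was higher and 3 lower. Psma1, a core particle subunit, differed by -0.46, and Psmd7, a regulatory particle subunit above background on all 8 arrays, by -0.20 (95% interval -0.72 to 0.32). Of 10 tested cytoskeletal genes 2 were higher and 8 lower (median -0.29, and -0.15 with the neighbours subtracted). Rdx, which links actin to membranes, differed by -0.53. Rhoc, a small GTPase above background on all 8 arrays, differed by 0.23 (95% interval -0.46 to 0.92). Mcl1, an inhibitor of apoptosis, had the smallest p of 3 tested survival genes, at 0.17 ± 0.29 (SE). All 4 oxidative stress genes on the array were too dim to be tested.

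Of 3 tested genes of the thyroid hormone and Ndrg list, Ndrg2, an astrocyte gene, had the smallest p. It had log2 signals of 4.19, 5.45, 4.11 and 5.87 in EtOH females, against 7.25, 5.19, 6.38 and 5.16 in Air females. The pool 1 arrays differed by -2.67 and the pool 2 arrays by 0.48. With the neighbours subtracted the difference was 0.02.

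**Figure D4:**
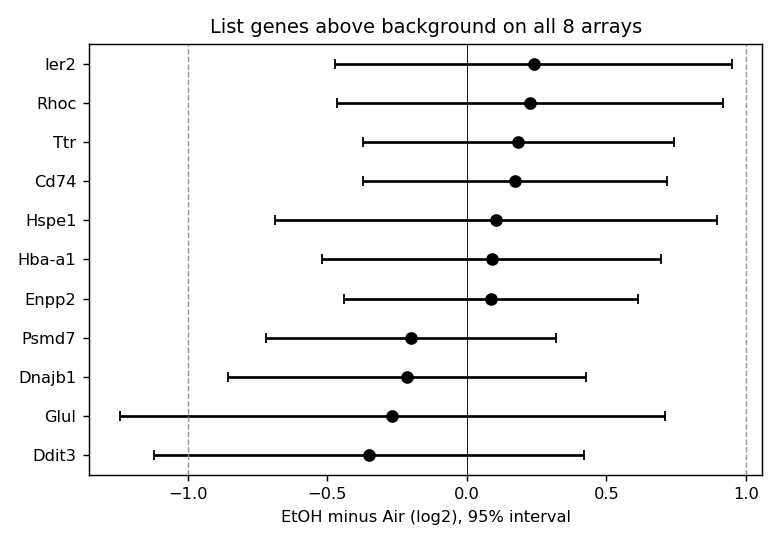
EtOH minus Air difference (log2) with its 95% interval for the 11 list genes above background on all 8 arrays, with dashed lines at a 2-fold change in either direction. All 11 intervals include 0, and those of 9 genes lie within the dashed lines, the exceptions being Glul and Ddit3.

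The tissue was checked with cell type markers, of which few are on this array. The neuronal marker Syn1 was above background on 0 of 4 EtOH and 2 of 4 Air arrays, and Thy1 on 2 of 4 of each. The astrocyte gene Glul, glutamine synthetase, was above background on all 8 arrays and differed by -0.27 ± 0.42 (SE), and Aldoc differed by 0.37 ± 0.26 (SE). The endothelial gene Eng differed by 0.13 ± 0.50 (SE).

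Of the markers of blood and choroid plexus, Hba-a1, Ttr and Enpp2 were above background on all 8 arrays and Hbb-b2 on 3 of 4 EtOH and 2 of 4 Air arrays. Hba-a1, alpha globin, had log2 signals of 9.73, 9.97, 10.4 and 10.1 in EtOH females, against 9.86, 9.80, 10.4 and 9.76 in Air females, a difference of 0.09 (95% interval -0.52 to 0.70). It was -0.50 with the neighbours subtracted. The beta globin probe Hbb-b2, in grid c of field 1, differed by 1.20 ± 0.76 (SE), with EtOH 2-1 at 7.89 and the other 3 EtOH arrays at 4.54 to 4.97. Its neighbours differed by 0.88, and 0.33 was left with them subtracted. Ttr and Enpp2, both abundant in choroid plexus, differed by 0.18 and 0.09, with 95% intervals of -0.37 to 0.74 and -0.44 to 0.61. These bulk samples cannot tell fewer cells of a type from less RNA per cell.

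The pool 1 and pool 2 arrays gave different EtOH minus Air differences. Across the 3872 tested probes, the differences in the 2 pools of arrays, which share no array, were correlated with r = -0.265, and 45.4% of probes had the same sign in both. Among the 514 probes above background on all 8 arrays, r was 0.194 and 56.8% had the same sign. With the neighbours subtracted, r over all tested probes was -0.0833. These values are descriptions, and the probes share arrays and grids. The 2 selection lines likewise gave differences with r = -0.0267 over all tested probes, and 48.6% of probes had the same sign in WSP-1 and WSP-2, which also differed in the injected ethanol dose.

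**Figure D5:**
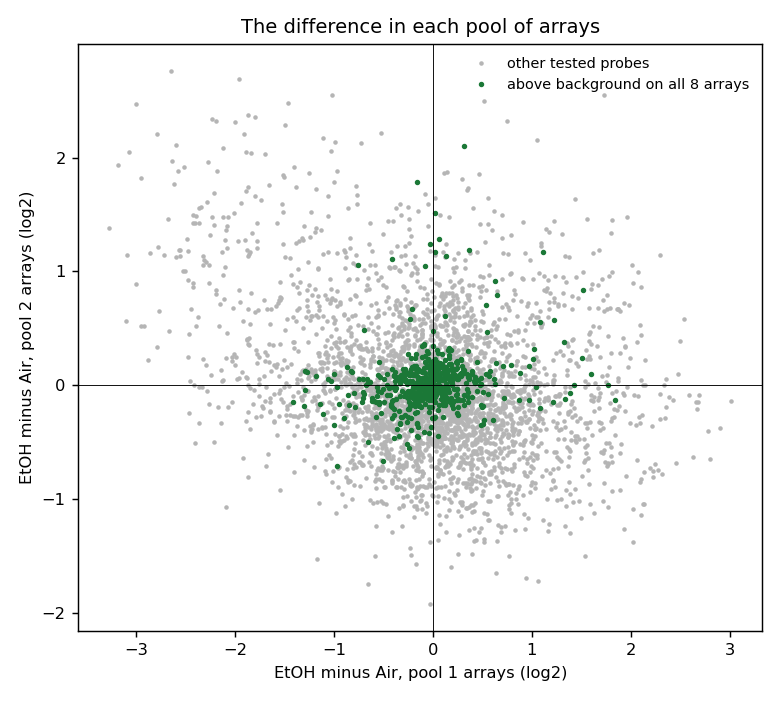
EtOH minus Air difference (log2) of each tested probe on the pool 2 arrays (vertical axis) against that on the pool 1 arrays (horizontal axis), each the difference of 2 EtOH and 2 Air arrays, with the 514 probes above background on all 8 arrays in green. The pool 1 differences spread more widely (SD 0.872) than the pool 2 differences (SD 0.589).

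The response of female WSP was then set against that of male WSP, which received the same treatment. No probe differed in response past the threshold in the interaction term of limma over 16 arrays (0 of 3872, 0%), with 101 probes (2.61%) at an unadjusted p under 0.05. Among the genes eligible to be named, Hps1 had the smallest p, with measured responses of -1.003 in female WSP and 1.30 in male WSP, a difference of -2.30 ± 0.55 (SE; unadjusted p = 0.00093, adjusted p = 1). It was above background on no Air array of male WSP, and the difference was -1.08 with the neighbours subtracted. Guca2a led in the positive direction, with 1.44 in female WSP and 0.42 in male WSP (unadjusted p = 0.0797, adjusted p = 1), a difference of 1.02 that was 0.47 with the neighbours subtracted. The 12 named higher genes were all higher in EtOH in male WSP too, and 9 of the 12 named lower genes were lower there, while 53.5% of all tested probes had the same sign in both. In male WSP the median difference of grid c of field 1 was 0.14.

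Against female WSR, bred for mild withdrawal convulsions, 0 of 3872 probes (0%) differed in response past the threshold over 15 arrays, with 233 probes (6.02%) at an unadjusted p under 0.05 and a smallest adjusted p of 0.103. Hps1 (unadjusted p = 0.00195, adjusted p = 0.611) and Guca2a (unadjusted p = 0.0374, adjusted p = 0.786) were above background on no female WSR array, so no size of the difference is given for them. In female WSR, 5 of the 12 named higher genes were higher and 10 of the 12 named lower genes were lower in EtOH, compared with 51.7% of all tested probes with the same sign in both. These counts include Guca2a, Wfdc18 and Hps1, which were above background on no female WSR array. In female WSR the median difference of grid c of field 1 was -0.205. Both comparisons use the same female WSP arrays, and WSR-2 was injected with 1.5 g/kg of ethanol, less than WSP-2.

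In a fit of all 31 arrays that shares 1 estimate of the spread, 57 probes (1.47%) passed for female WSP minus female WSR, 55 of them with a negative difference. The median response of these 57 was -0.17 in female WSP and 1.98 in female WSR, and the response was larger in size in female WSR for all 57. Of the 57, 42 lay in grid e of field 2, and 2 had a title naming a gene. The background readings were 10.3 to 283 on the 8 female WSP arrays and 430 to 769 on the 7 female WSR arrays, and the part of position and background in these calls was not tested.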

How the data were processed

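RNA was labelled with 33P and hybridised to cDNA arrays, per the labels' protocols. The files hold a spot intensity and 1 background reading per array as deposited, not background-subtracted, and the quantification software is not given in the sources used here. The deposited value table holds log2 values that are a linear function of log2 signal, with a slope and an offset of its own for each array (slopes of 1.21 to 2.77), and its column medians were 7.35 to 11.2. Its centring stays unknown, and it served as an alternative.

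Intensities were corrected with normexp (offset 50 where the array's median was at least 500, otherwise 0.1 of the median), genomic DNA controls were dropped, and 31 arrays were quantile normalised on the log2 scale, without the array that its submitters marked as excluded. Probes above the 25th percentile of mean log2 signal were tested. The EtOH minus Air difference was fitted on 8 arrays in limma 3.58.1 (R 4.3.3) with pool number as a block, and adjusted by Benjamini-Hochberg. Interactions used the female WSP arrays with those of male WSP or female WSR. Scripts were tested on simulated data, and figures were drawn with matplotlib 3.10.9.

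Named genes are the 12 in each direction with the smallest p among probes with a gene title above background on all 4 arrays of a treatment, since none passed the threshold. Of each list, the gene with the smallest p, those with an unadjusted p under 0.05 and those above background on all 8 arrays are named. A gene of the 12 lower ones and some list members are not reported here, and counts over all 12 or over the lists include them. Symbols were assigned by hand from the array's titles, 3 list members through their accession. The members and lists were chosen with earlier results of these data known. Where a group was above background on no array, a bound replaced the fold: the mean of the brighter group minus the dim group's mean of, per array, the higher of the lowest signal above background and the probe's own signal. That bound takes no account of the spread between arrays, nor of arrays of the brighter group that are themselves below background. The number of arrays limits the precision. The labels give 2 animals per pool, and each p-value rests on the spread between arrays left after treatment and pool number were fitted.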

Additional observations from a re-analysis of the deposited data

Results flagged for a closer look

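In 110 groups of 4 arrays, the gap between an extreme array and the next, divided by the range, exceeded Dixon's critical value at the 95% level in 15. Chance alone flags about 1 group in 20. Values are log2 normalised signal.

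EtOH 2-1, the array with the fewest probes above background, was the extreme array in 7 of the 15. It was high for Art5 at 7.20 (the others 4.23 to 4.67), Ramp2 at 7.25 (4.98 to 5.31), Bckdha at 7.79 (4.83 to 5.06), Kif4 at 8.21 (4.63 to 4.78) and Hbb-b2 at 7.89 (4.54 to 4.97), which all lie in grid c of field 1. It was low for Glul at 6.28 (8.12 to 8.48) and for Dnajb1 at 8.36 (8.94 to 9.03).

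Air 2-2 was low for MSSP at 4.86 (5.76 to 5.87), Tinag at 4.73 (5.53 to 5.61) and Cpxm2 at 4.52 (5.23 to 5.34). EtOH 2-2 was high for Clec1b at 5.64 (5.01 to 5.09) and low for Egr1 at 2.75 (4.19 to 4.44). Egr1 was also high on Air 1-1 at 5.86 (4.32 to 4.41). Hspe1 was low on EtOH 1-1 at 5.83 (6.80 to 6.85), and Hba-a1 was high on Air 2-1 at 10.41 (9.76 to 9.86).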

How the results depend on the processing

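The count of 0 probes past the threshold for EtOH against Air held in every alternative run except 1, with 59 to 634 probes at an unadjusted p under 0.05. The exception, chosen after seeing the data, subtracted the neighbouring spots and used pool 2 arrays only (2 against 2): 7 probes passed (0.181%), 3 of them higher in EtOH, and the only one with a gene title, histidine rich calcium binding protein, differed by -1.81 in pool 2 and by 1.46 in pool 1. Without subtraction, the pool 2 arrays only gave the 634 of 3872 probes at an unadjusted p under 0.05, and the pool 1 arrays only gave 156. Array weights, 1.72 to 2.56 on pool 2 and 0.364 to 0.818 on pool 1 arrays, gave 395. The main fit gave 141, and 193.6 would be expected by chance. The probes share arrays and grids, and the cause of the higher counts was not tested. Leaving out each of the 8 female WSP arrays in turn gave 0 for EtOH against Air and for both interactions. The male WSP and female WSR arrays were not left out. The interaction with female WSR gave 57 probes in the fit of all 31 arrays and 0 in the others, and that with male WSP gave 0 throughout.

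Pool number was the block throughout. Without a replicate block 0 probes passed, and with a replicate block of 4 pairs of line and pool 0 probes passed (132 at an unadjusted p under 0.05 with the 4 pairs). Deviations of the 4 pairs of the same line and pool were correlated with r of 0.023 to 0.235, not all over 0.1. Over all EtOH and Air arrays of the same pool number r was -0.024 to 0.235, positive in 7 of 8. Over those of different pool number it was -0.306 to 0.029, negative in 7 of 8. Deviations were taken from the treatment mean and cancel within each treatment. Positive values within a pool number therefore go with negative values between pool numbers, which are no separate observation.

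Of 1439 gene values under the alternatives, 1379 kept their direction, 60 were opposite and 0 passed the threshold. They cover 53 genes, of which 30 were opposite in no alternative. The alternatives reuse the same arrays and part of the genes were picked by smallest p, so a kept direction is no independent support. The cause of the opposite values was not tested. The opposite values (log2, EtOH minus Air) follow by setting. WSP-1 only gave Enpp2 -0.024, Eng -0.39, Gabbr1 0.10, Dnajb1 0.19 and Glul 0.53. WSP-2 only gave Hspe1 -0.016 and Ttr -0.10. Array weights gave Hspe1 -0.037 and Eng -0.039. Median scaling, under which the median of all probes was -0.212, gave carbonyl reductase -0.088, Npm1 -0.25, Mcl1 -0.26, Rhoc -0.41, Ier2 -0.43, Ttr -0.47, Cd74 -0.55, Hspe1 -0.55, Enpp2 -0.59 and Hba-a1 -0.60. Subtracting the neighbours gave Art5 -0.051, Ier2 -0.15, carbonyl reductase -0.25, Mcl1 -0.31, Hspe1 -0.44, Hba-a1 -0.50, Npm1 -0.58, Ttr -0.61, Ndrg2 0.017, v-src suppressed transcript 1 0.21, Psma1 0.29, Dnajb1 0.36 and Glul 0.41. Pool 1 only gave Enpp2 -0.046 and Hba-a1 -0.082. Pool 2 only gave Mcl1 -0.050, Soat1 -0.072, Ier2 -0.074, Hspe1 -0.15, Ndufv1 -0.17, Eng -0.24, Cpxm2 0.011, Tsc22d3 0.12, Ddit3 0.12, v-src suppressed transcript 1 0.33 and Ndrg2 0.48. The deposited value table gave Enpp2 -0.037, Hspe1 -0.090, Mcl1 -0.13, Tsc22d3 0.11, Cpxm2 0.12 and Ndrg2 0.43. Leaving out single arrays gave ranges of -0.15 to 0.35 for Hspe1, -0.0088 to 0.29 for Mcl1, -0.0050 to 0.25 for Hba-a1, -0.016 to 0.39 for Ier2, -0.33 to 0.45 for Eng and -0.59 to 0.15 for Glul. Signal over background limits dim probes: on EtOH 2-1 only 15.8% of probes exceeded the background reading.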
